A study of Mus musculus with 6 samples.

Results

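Solute carriers are membrane proteins that move small molecules across cell and organelle membranes, and their gene symbols start with Slc followed by a family number. The 110 genes described here are those on the array with such a symbol and with at least 1 probe above background on 3 or more of 6 lens arrays. Above background means a detection p-value under 0.05. They were taken from 326 solute carrier genes on the array, after 7 others had been set apart (Slc6a6, Slc6a9, Slc6a13, Slc1a3, Slc17a6, Slc2a1 and Slc7a11). Of the remaining 319 genes, 149 were above background on 0 arrays and 60 on 1 or 2. The 110 members belong to 41 of the 51 families on the array, and 79 of them (71.8%, against 73.8% of all tested genes) were above background on all 6 arrays.

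The arrays held lens RNA of 3 mice homozygous for Fgf9Y162C, an amino acid substitution in the secreted fibroblast growth factor 9, and of 3 wild-type mice. Per the labels, all mice were C57BL/6J and 18 weeks old, and each array carried RNA of 1 mouse. The homozygotes were labelled as 2 females and 1 male, and the wild type as 1 female and 2 males. The labels do not describe the dissection.

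The lens has no blood vessels. Its epithelium and fibre cells take up sugars, amino acids, ions and antioxidant precursors from the fluid around them through carriers, and use other carriers to hold their volume, pH and calcium. Still other carriers lie in internal membranes: family 25 in mitochondria, family 35 in the endoplasmic reticulum and Golgi, families 30 and 39 around the zinc pools, and families 17, 18 and 32 mostly in vesicles and lysosomes.

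The homozygous arrays detected 7816 to 8396 probes and the wild-type arrays 8713 to 9671. Wild type replicate 2 stood apart on the first principal component (43.2% of the variance). Wild type replicate 3 carries a male label, yet its array detected Xist and did not detect the Y-linked Eif2s3y. Of 13 lens markers on the array, 10 were above background on at least 3 arrays, among them the alpha crystallins and Mip, and Pax6 and Gja3 were on 0 arrays. Fgf9 was above background on 0 arrays. The lens was measured in bulk, so fewer cells of a type and less RNA per cell cannot be told apart.

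No solute carrier member changed between homozygous and wild-type lenses in limma's test across all 8618 probes above background. The count was 0 of 110 at an adjusted p under 0.05, where 0.435% of the 6430 tested genes passed, 0.109% higher and 0.327% lower. At an unadjusted p under 0.05 there were 10 members, 4 higher and 6 lower, a share of 9.09%. Of all tested genes 9.14% had such a p, 3.98% higher and 5.16% lower, so the members lay near the background. The median log2 fold change, homozygous minus wild type, was 0.03 over the members and 0.00 over all tested genes. It was above 0 in 60 members (54.5%, against 50% of all tested genes) and below 0 in 50. Its size passed 1 in 2 members, Slc13a4 and Slc32a1 (1.82%, against 1.01% of all tested genes). The median standard error was 0.18 in both sets. When the arrays were instead scaled to a common median, all tested genes shifted to a median of -0.32 and 17 members lay above 0, so the signs given for gene groups hold for quantile normalization only. The 95% interval of the log2 fold change lay within 1 of 0, a 2-fold change, for 103 of 110 members (93.6%, and 94.8% of all tested genes). The other 7 were Slc13a4, Slc26a4, Slc32a1, Slc38a8, Slc7a8, Slc17a7 and Slc24a1, and they are described below with their values. The intervals, like the signs, hold only for the background correction, offset and quantile normalization used here. That offset pulls changes of dim probes toward 0, so a dim member may have changed by more than its interval shows. With median scaling the median over the members was -0.28, so the intervals do not carry over to that scaling. Values are normalized log2 signals unless said otherwise. Signals of different probes were compared only to choose the probe of a gene, the genes named and those at the edge of the rule.

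In 18 members the homozygous and wild-type values did not overlap, with the homozygotes higher in 10 and lower in 8. That is 16.4% of the members, against 15.1% of all tested genes (7.42% higher and 7.64% lower). These counts are for values after quantile normalization. The mean deposited signal was 162 to 166 on the homozygous arrays and 191 to 200 on the wild-type arrays. In deposited signal the 10 higher members overlapped or, in Slc7a2, lay lower in the homozygotes (159, 159 and 161, against 179, 191 and 184). The 8 lower members lay lower there too. Detection chose the members and moved with the groups. Of the members, 19 (17.3%, the same share as of all tested genes) were above background on more wild-type than homozygous arrays. Another 9 (8.18%, against 5.4% of all tested genes) were above background on more homozygous than wild-type arrays. Slc13a4, Slc38a8, Slc9a3r1 and Slc9a3r2 were above background on all 3 wild-type and 0 homozygous arrays (3.64% of the members, against 1.93% of all tested genes), so these 4 met the rule only through the wild type, and their lower homozygous signal is part of how they were chosen. No member met it only through the homozygotes.

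**Figure D1:**
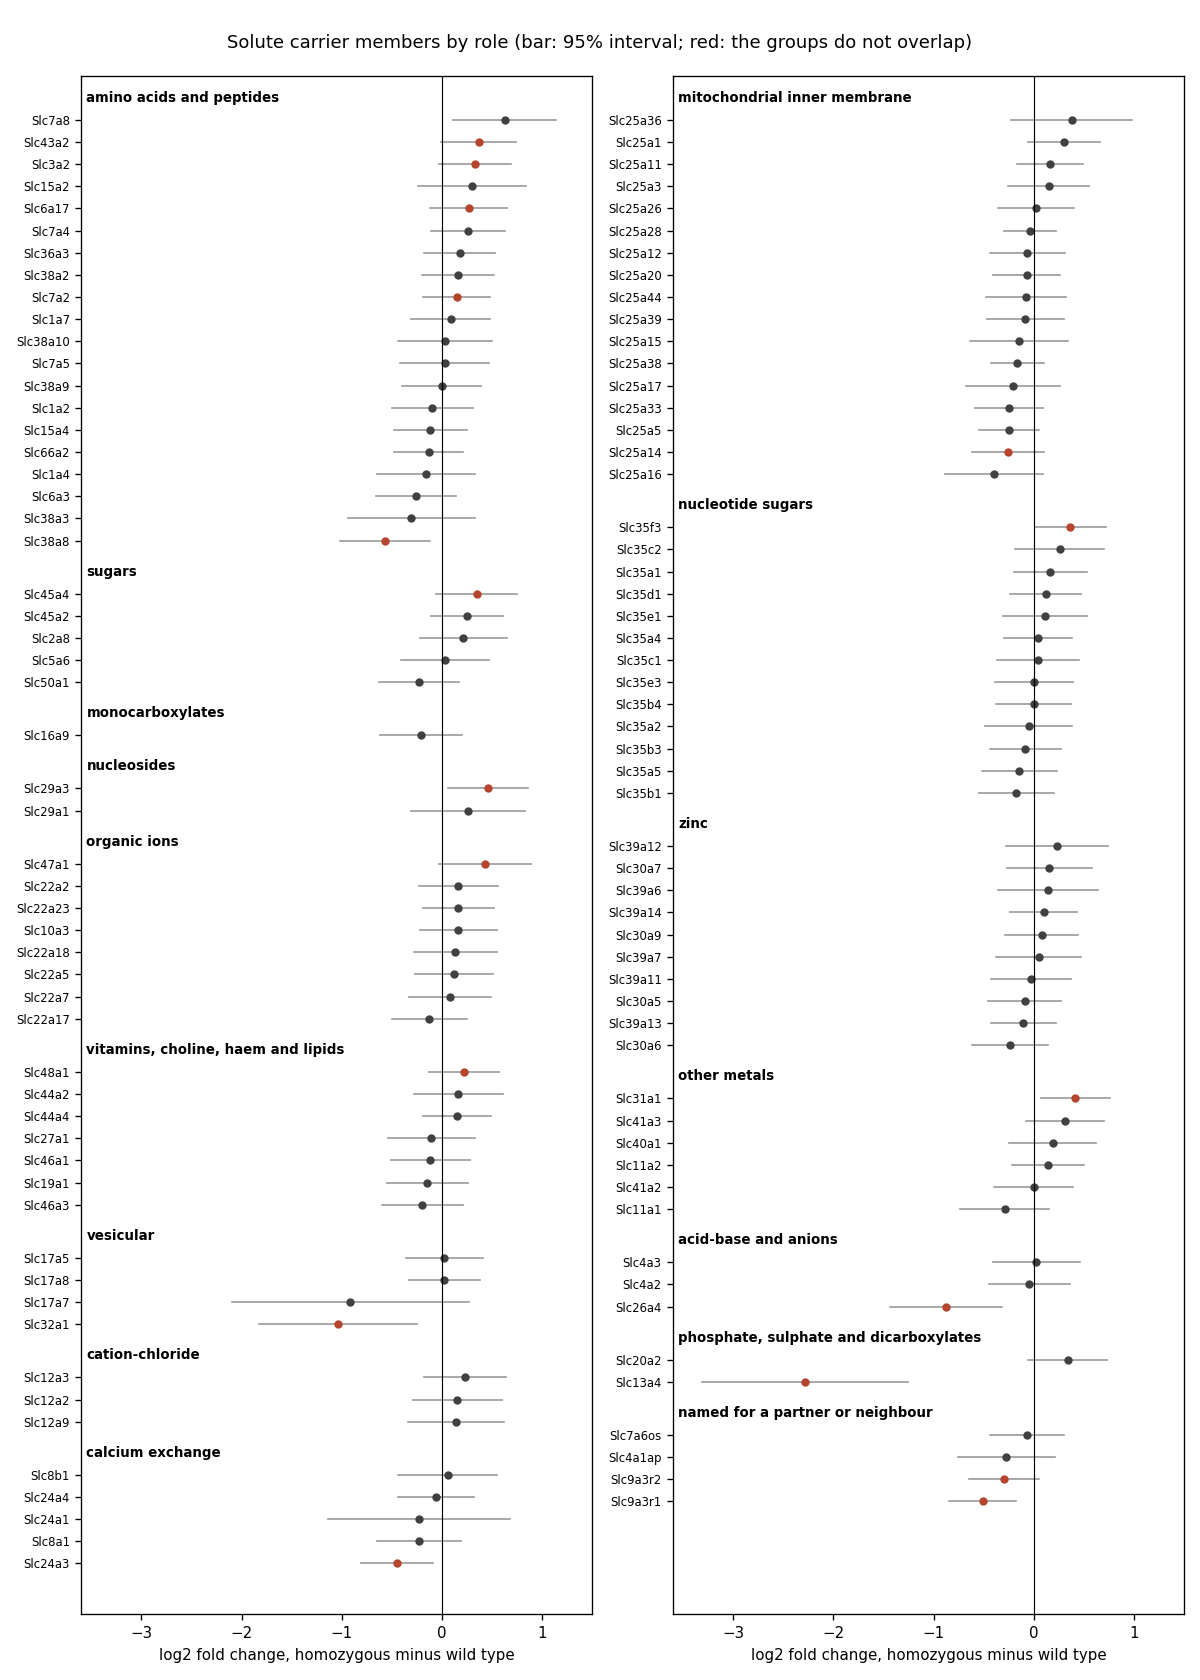
Log2 fold change (homozygous minus wild type, horizontal axis) of each of the 110 members, 1 row per gene, grouped by role, with the 95% interval from limma as a bar. Red points mark the 18 members whose groups do not overlap. Most points lie near 0, and Slc13a4, at -2.29, lies farthest from it.

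Slc13a4, a sodium-coupled sulphate transporter, had the largest difference and the smallest adjusted p of the members. Its log2 signal was 4.19, 4.39 and 4.75 in the homozygous lenses, against 7.25, 5.27 and 7.66 in the wild-type lenses. The groups did not overlap, and wild type replicate 2 lay nearest to the homozygotes. The deposited signals were 67.7, 79.5 and 88.4 in the homozygotes, all below the detection limit, and 236, 117 and 298 in the wild type. Set against that limit, the group means put Slc13a4 at least 3.68-fold lower in the homozygotes, a bound that leaves out the spread between arrays. The fitted log2 fold change was -2.29 (SE 0.47, 95% interval -3.32 to -1.26, n = 3 per group), and it did not pass (limma adjusted p = 0.0766). Without wild type replicate 2, with the same probes tested, it was -2.94 and passed (limma adjusted p = 7.28e-06). Without wild type replicate 3 it was -1.79 and did not pass (limma adjusted p = 0.287). Both fits kept the probes tested on all 6 arrays, a choice added after the data were seen. With the detection rule applied to the remaining arrays, Slc13a4 failed it whenever a wild-type array was left out, and was not tested. The size moved with the background correction: it was -1.08 with none and -1.40 with a larger offset. The gene set apart as Slc6a13, a GABA and taurine transporter, had the same order of wild-type arrays. Its log2 signal was 4.38, 4.53 and 4.47 in the homozygotes and 7.40, 6.02 and 7.73 in the wild type.

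Slc26a4, the anion exchanger pendrin, had log2 signals of 4.94, 4.67 and 4.81 in the homozygotes and 5.49, 5.23 and 6.34 in the wild type. The groups did not overlap, and wild type replicate 3 was the highest array. Only 1 of 3 homozygous arrays was above background, against 3 of 3 wild-type arrays, so the size of the difference is poorly fixed. The fitted log2 fold change was -0.88 (SE 0.26, limma adjusted p = 0.281), -0.54 without wild type replicate 3 and -0.30 without background correction. Slc38a8, a sodium-coupled transporter of neutral amino acids, had 4.72, 4.47 and 4.46 in the homozygotes and 5.06, 4.73 and 5.54 in the wild type. The gap between the groups was narrow. By the bound on the means the gene was at least 1.20-fold lower in the homozygotes, and it did not pass (limma adjusted p = 0.423). The scaffold genes Slc9a3r1 and Slc9a3r2, which are no transporters but bind the sodium-proton exchanger and other membrane proteins, were at least 1.12-fold and 1.09-fold lower (limma adjusted p = 0.296 and 0.613). Slc9a3r1 had 4.54, 4.54 and 4.43 in the homozygotes and 5.06, 4.84 and 5.14 in the wild type. In Slc13a4, Slc26a4, Slc38a8 and Slc9a3r1, wild type replicates 1 and 3 lay above replicate 2. Slc9a3r2 had another order, with 4.74, 4.74 and 4.54 in the homozygotes and 5.03, 5.10 and 4.80 in the wild type, where replicate 2 was the highest.

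Some markers of leukocytes were also higher on wild type replicates 1 and 3 than on the other arrays. Of 10 listed, 9 were on the array and 4 (C1qb, Fcer1g, Laptm5 and Lyz1) were above background on 3 or more arrays. Their summed normalized signal was 94.5 to 118 in the homozygotes and 159 to 247 in the wild type, with replicate 2 the lowest of the wild type. C1qb, Fcer1g and Laptm5 were above background on exactly 3 arrays and had their 3 highest values in the wild type. The lower homozygous sum may thus be part of how the markers were chosen. Lyz2, above background on 2 arrays and not in the sum, had another order, with log2 signals of 5.12, 4.51 and 4.64 in the homozygotes and 4.50, 4.43 and 4.74 in the wild type. The defining markers C1qa, Ptprc and Tyrobp were above background on 0 arrays. Optc, a marker of the ciliary epithelium, was above background on 2 arrays, with log2 signals of 4.24, 4.32 and 4.46 in the homozygotes and 5.46, 4.47 and 5.89 in the wild type. Of the other 2 markers in that list, Zic1 was above background on 2 arrays and Zic2 on 0. The part of these cells in the signal of the carriers was not tested.

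Of the carriers that load vesicles with neurotransmitter, Slc17a7 and Slc32a1 were highest on wild type replicate 2. Slc17a7, which fills vesicles with glutamate, had log2 signals of 5.20, 5.61 and 5.25 in the homozygotes and 5.04, 7.96 and 5.80 in the wild type. Wild type replicate 1 was the lowest of the 6 arrays and replicate 2 the highest. The log2 fold change was -0.91 (SE 0.54, limma adjusted p = 0.65), -0.07 without wild type replicate 2 and -1.51 without wild type replicate 1. Slc32a1, which fills vesicles with GABA and glycine, had 4.46, 4.97 and 4.47 in the homozygotes and 4.98, 6.71 and 5.31 in the wild type. Its groups did not overlap, by the narrow gap between homozygous replicate 2 and wild type replicate 1. It was above background on 1 homozygous and 3 wild-type arrays, so here too the size is poorly fixed. The fitted log2 fold change of -1.03 (SE 0.36, limma adjusted p = 0.404) became -0.48 without wild type replicate 2 and -0.40 without background correction. The other vesicular members were the glutamate loader Slc17a8 and the lysosomal sialic acid exporter Slc17a5, with log2 fold changes of 0.02 and 0.03.

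Slc24a1, the potassium-dependent sodium-calcium exchanger of rods, had 4.64, 5.17 and 5.28 in the homozygotes and 4.58, 6.51 and 4.68 in the wild type. Wild type replicate 2 alone was high. Its log2 fold change was -0.23 with all arrays and 0.37 without that array. Slc38a3, a glutamine transporter, had 4.97, 5.73 and 5.52 in the homozygotes and 5.17, 6.34 and 5.61 in the wild type, and its log2 fold change was -0.30 with all arrays and 0.01 without wild type replicate 2. In these 4 genes, chosen after their values were seen, that array exceeded each other array by more than 0.5 on the log2 scale. No share of all tested genes is at hand for such an excess, so these 4 are not shown to differ from other genes. Photoreceptor markers stood out on the same array. Of 12 listed, 11 were on the array and 10 were above background on 3 or more arrays, with a summed normalized signal of 2295 to 4697 in the homozygotes and of 2461, 13517 and 3249 in the wild type. Markers of the inner retina and glia (5 of 11 above background on 3 or more arrays; Glul, Nefl and Snap25 on 0) summed to 129 to 151 in the homozygotes and to 312, 477 and 360 in the wild type. Their sum separated the groups and had the wild-type order of Slc32a1. Rbpms, 1 of the 5, did neither. Its log2 signal was 4.69, 4.83 and 5.17 in the homozygotes and 4.45, 4.54 and 4.79 in the wild type. Markers of pigment cells and epithelium (6 of 8; Tyr on 0) summed to 182 to 342 in the homozygotes and to 415, 1746 and 393 in the wild type, also highest on wild type replicate 2. Rcvrn, Pvalb, Mlana and Tyrp1 in these 3 lists were above background on exactly 3 arrays, with their 3 highest values in the wild type. Their lower homozygous signal may thus be part of how they were chosen. The 1 red cell marker above background, Hba-a1, was highest on wild type replicate 2 too. Its normalized signal, not in log2, was 137, 33.8 and 21.7 in the homozygotes and 122, 328 and 294 in the wild type. The part of these cells in the signal of the carriers was not tested. Of all members, 27 were highest on this array and 28 lowest, and the 24.5% highest compares with 22% of all tested genes.

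**Figure D2:**
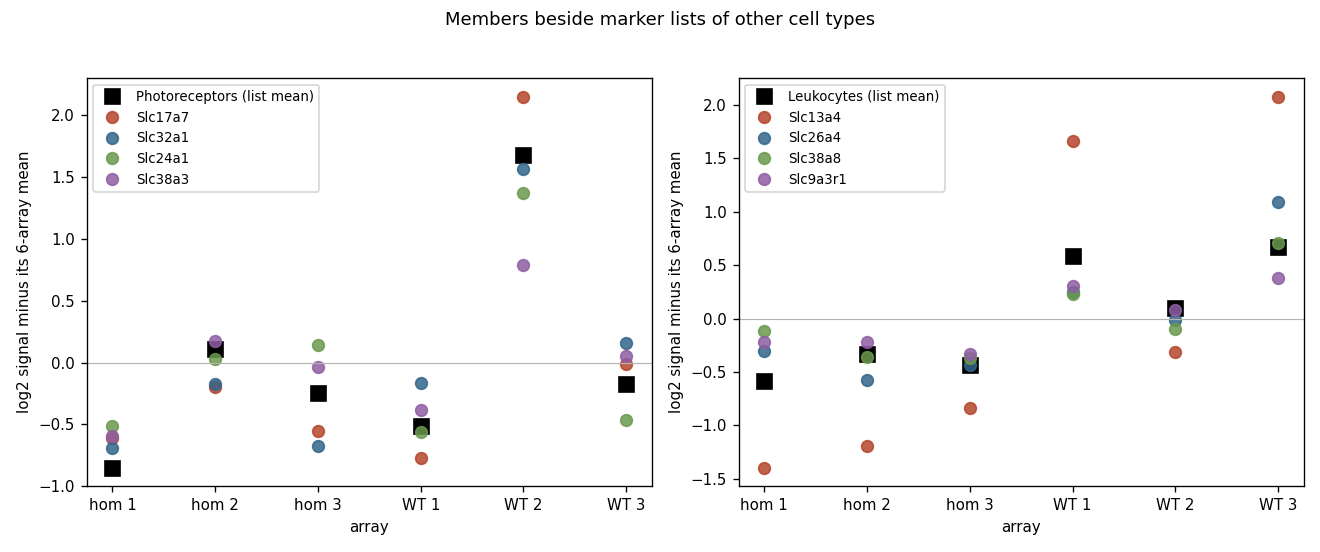
Normalized log2 signal of each gene minus its 6-array mean (vertical axis) on each array, with homozygous (hom) arrays left and wild-type (WT) arrays right, and black squares for the mean over a marker list. Slc17a7, Slc32a1, Slc24a1 and Slc38a3 are highest on wild type replicate 2, as is the photoreceptor list, and Slc13a4, Slc26a4, Slc38a8 and Slc9a3r1 are highest on wild type replicate 3, as is the leukocyte list.

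The amino acid and peptide carriers, grouped by family number and not by each gene's substrate, gave 20 members of 56 genes on the array. Of these 20, 12 had a log2 fold change above 0 and 8 below, and 0 passed. Slc7a8, a light chain of the exchanger of large neutral amino acids, had log2 signals of 7.76, 8.28 and 8.21 in the homozygotes and 7.29, 7.06 and 8.02 in the wild type. The groups overlapped, since wild type replicate 3 lay above homozygous replicate 1. The log2 fold change was 0.63 (SE 0.23, 95% interval 0.12 to 1.14, limma adjusted p = 0.433), the highest of the members with all arrays and quantile normalization. It was 0.91 without wild type replicate 3 and 0.43 without wild type replicate 2. With median scaling it was 0.19, below Slc43a2 at 0.23, and with the authors' processed values it was 0.68, below Slc29a3 at 0.78. Its second probe gave 0.39. Slc3a2, the heavy chain that carries such light chains to the membrane, had 5.19, 4.89 and 5.05 in the homozygotes and 4.89, 4.59 and 4.66 in the wild type. It was above background on 3 homozygous arrays and 1 wild-type array, and did not pass (log2 fold change 0.33, limma adjusted p = 0.592). The other light chain, Slc7a5, stood at 0.03, with 7.94, 8.31 and 8.25 in the homozygotes and 7.85, 7.91 and 8.65 in the wild type. Slc43a2, which also carries large neutral amino acids, was at 0.37, and the cationic amino acid transporter Slc7a2 at 0.15, though its second probe gave -0.22. The groups did not overlap in Slc43a2, nor for the brighter probe of Slc7a2. The neutral amino acid carrier Slc6a17 separated them too, at 0.27. The 3 probes of Slc38a2, a carrier of small neutral amino acids, gave 0.16, 0.33 and 0.36, and none passed. In family 1, the serine and alanine transporter Slc1a4 was at -0.16 and the retinal glutamate transporter Slc1a7 at 0.09.

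Of 24 sugar carriers by family number, without the glucose transporter set apart, 5 were members, 4 above 0 and 1 below. Slc45a4 had 6.33, 6.04 and 5.83 in the homozygotes and 5.76, 5.71 and 5.67 in the wild type, without overlap, and did not pass (log2 fold change 0.35, limma adjusted p = 0.613). Slc45a2, known from the melanosomes of pigment cells, was at 0.25. The family 5 member, Slc5a6, carries vitamins and not sugar, and stood at 0.03. Both nucleoside carriers lay above 0. The lysosomal Slc29a3 had 5.58, 5.80 and 5.30 in the homozygotes and 5.08, 5.08 and 5.14 in the wild type, so that all homozygous arrays exceeded a tight wild-type group. Its log2 fold change was 0.46 (SE 0.18, limma adjusted p = 0.464), and the plasma membrane carrier Slc29a1 was at 0.26. Of 8 organic ion carriers 7 lay above 0. Slc47a1, which exports organic cations with proton exchange, had 6.08, 6.04 and 6.05 in the homozygotes and 5.84, 5.17 and 5.85 in the wild type. Wild type replicate 2 was low and the other arrays lay close together, and the log2 fold change was 0.43 (limma adjusted p = 0.586), and 0.20 without that array. In family 22, Slc22a23 and Slc22a18 were at 0.17 and 0.14, and the probes of the carnitine transporter Slc22a5 disagreed, at 0.12 and -0.41.

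The metal carriers outside the zinc families gave 6 members of 7 genes on the array, 4 above 0 and 2 below. Slc31a1, the copper uptake transporter of the plasma membrane, had log2 signals of 7.55, 7.38 and 7.21 in the homozygotes and 6.91, 6.87 and 7.11 in the wild type. The groups did not overlap, and the log2 fold change was 0.42 (SE 0.16, limma adjusted p = 0.433), but -0.01 with median scaling. The iron exporter Slc40a1 was at 0.19, and the macrophage metal carrier Slc11a1 at -0.29. Zinc carriers gave 10 members of 21, 6 above 0 and 4 below, between -0.23 for Slc30a6 and 0.24 for Slc39a12. Family 30 moves zinc out of the cytosol and family 39 into it, and the groups overlapped in every member of both. Slc30a5 and Slc39a13 were at -0.09 and -0.10. The haem transporter Slc48a1 had 6.45, 6.58 and 6.46 in the homozygotes and 6.23, 6.24 and 6.36 in the wild type. It separated the groups, at 0.22 on the log2 scale (limma adjusted p = 0.706), so separation here came with a small difference.

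**Figure D3:**
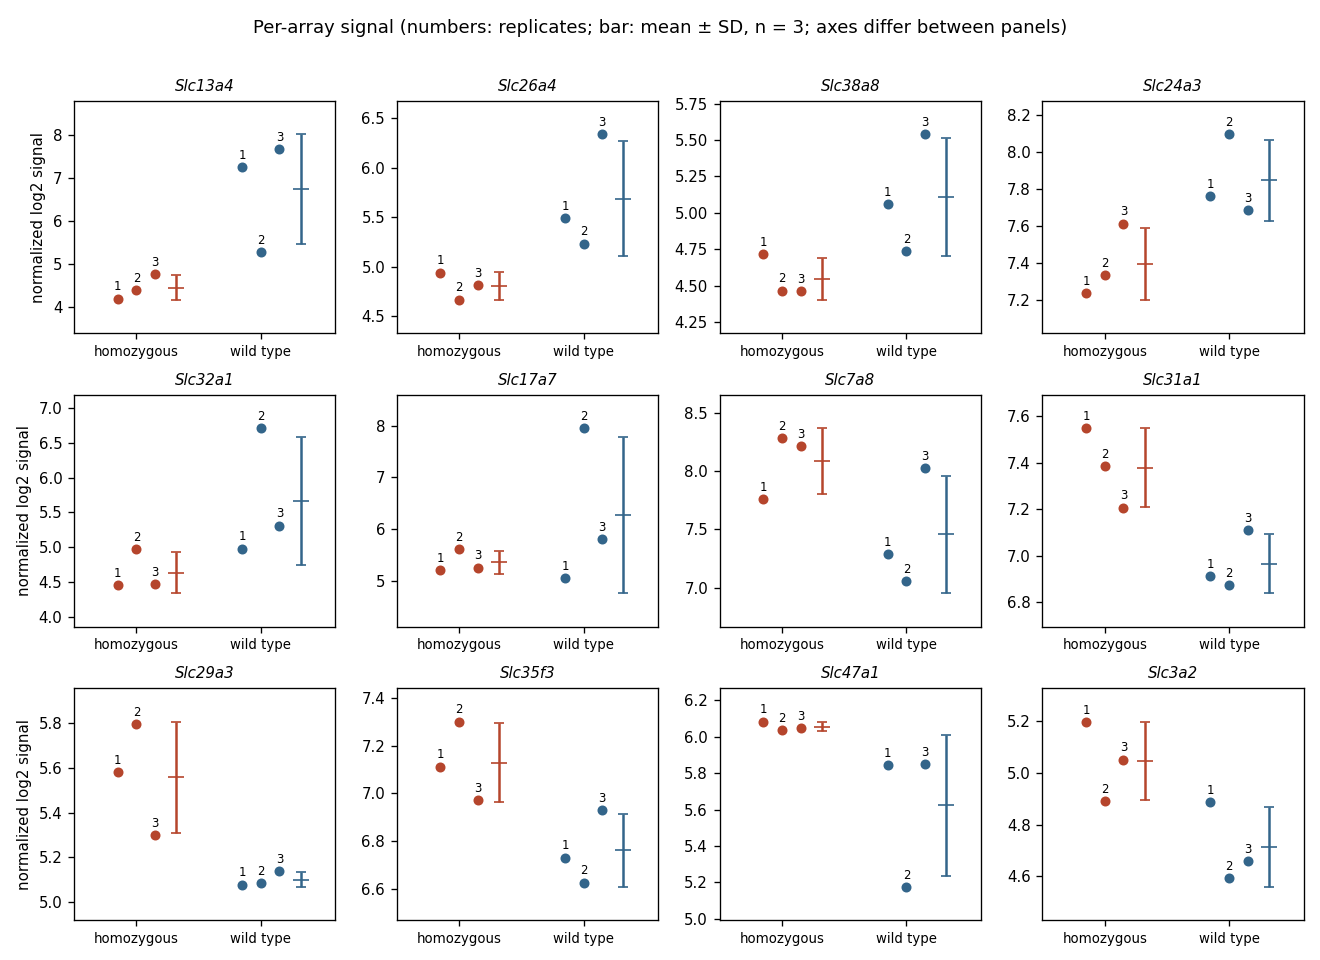
Normalized log2 signal on each array (points, numbered by replicate) in homozygous and wild-type lenses for 12 members, with the mean and SD of each group (n = 3) as a bar beside the points, and with a vertical axis of its own in each panel. In Slc13a4 and Slc26a4 the wild-type arrays spread widely, in Slc32a1 and Slc17a7 wild type replicate 2 stands alone, and in Slc31a1, Slc29a3 and Slc35f3 the homozygous points lie above the wild type.

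Family 25, the carriers of the mitochondrial inner membrane, was the largest, with 17 members of 39 genes on the array. In it 5 members lay above 0 and 12 below, with a median of -0.07 and a range of -0.40 for Slc25a16 to 0.38 for Slc25a36, and 0 passed (lowest limma adjusted p = 0.613). Both ends of the range moved without wild type replicate 2, to -0.17 for Slc25a16 and 0.05 for Slc25a36. The ADP/ATP exchanger Slc25a5 had 9.65, 9.52 and 9.63 in the homozygotes and 9.83, 10.1 and 9.60 in the wild type. One wild-type array lay within the homozygous values, and the log2 fold change was -0.25, and -0.12 without wild type replicate 2. The citrate exporter Slc25a1 had 7.16, 6.97 and 6.87 in the homozygotes and 6.68, 6.53 and 6.87 in the wild type, at 0.31. The phosphate carrier Slc25a3 was at 0.15, and the oxoglutarate carrier Slc25a11 at 0.16, with 0.25 and 0.19 for its other probes. The mitochondrial iron importer Slc25a28 was at -0.04, with a 95% interval of -0.30 to 0.22. The glycine importer Slc25a38, which feeds haem synthesis, was at -0.16, and its other probes gave -0.28 and -0.05. The acylcarnitine carrier Slc25a20 was at -0.07. The uncoupling protein relative Slc25a14 was the only member of the family whose groups did not overlap, with 4.64, 4.96 and 4.93 in the homozygotes and 5.09, 5.03 and 5.19 in the wild type (log2 fold change -0.26, limma adjusted p = 0.668).

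Family 35 gave 13 members of 24 genes, 9 above 0 and 4 below, between -0.17 for Slc35b1 and 0.37 for Slc35f3. Most of its known members bring nucleotide sugars into the Golgi and endoplasmic reticulum for glycan synthesis. Slc35f3 had 7.11, 7.30 and 6.97 in the homozygotes and 6.73, 6.63 and 6.93 in the wild type. It separated the groups by a narrow gap (limma adjusted p = 0.546). Slc35e3 had a log2 fold change of 0.00, with a 95% interval of -0.39 to 0.39.

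Of the cation-chloride cotransporters, 3 of 8 genes were members and all lay above 0, though with median scaling Slc12a2 stood at -0.27 and Slc12a3 at -0.04. Slc12a2, the sodium-potassium-chloride cotransporter, had log2 signals of 8.28, 8.38 and 8.65 in the homozygotes and 8.25, 8.74 and 7.85 in the wild type. The groups overlapped (log2 fold change 0.16, 95% interval -0.28 to 0.60), and the value was -0.05 without wild type replicate 3. The thiazide-sensitive cotransporter Slc12a3 was at 0.23. Of 25 acid-base and anion carriers 3 were members: besides Slc26a4 these were the chloride-bicarbonate exchangers Slc4a2 and Slc4a3, at -0.04 and 0.03. Kanadaptin, the gene Slc4a1ap, was at -0.27 and is no transporter.

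Calcium exchangers gave 5 members of 9 genes, 1 above 0 and 4 below. Slc24a3, a potassium-dependent sodium-calcium exchanger, had 7.24, 7.34 and 7.61 in the homozygotes and 7.76, 8.09 and 7.68 in the wild type. The groups did not overlap, and the log2 fold change was -0.45 (SE 0.16, 95% interval -0.81 to -0.09, limma adjusted p = 0.423). It is the only lower member above background on all 6 arrays whose groups did not overlap. Its family member Slc24a4 was at -0.06, the plasma membrane exchanger Slc8a1 at -0.23 and the mitochondrial exchanger Slc8b1 at 0.06. The phosphate transporter Slc20a2 had 7.02, 7.04 and 7.05 in the homozygotes and 6.39, 7.02 and 6.67 in the wild type. The lowest homozygous array lay just below the highest wild-type array, 7.0151 against 7.0191, and the log2 fold change was 0.34 (limma adjusted p = 0.613).

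**Figure D4:**
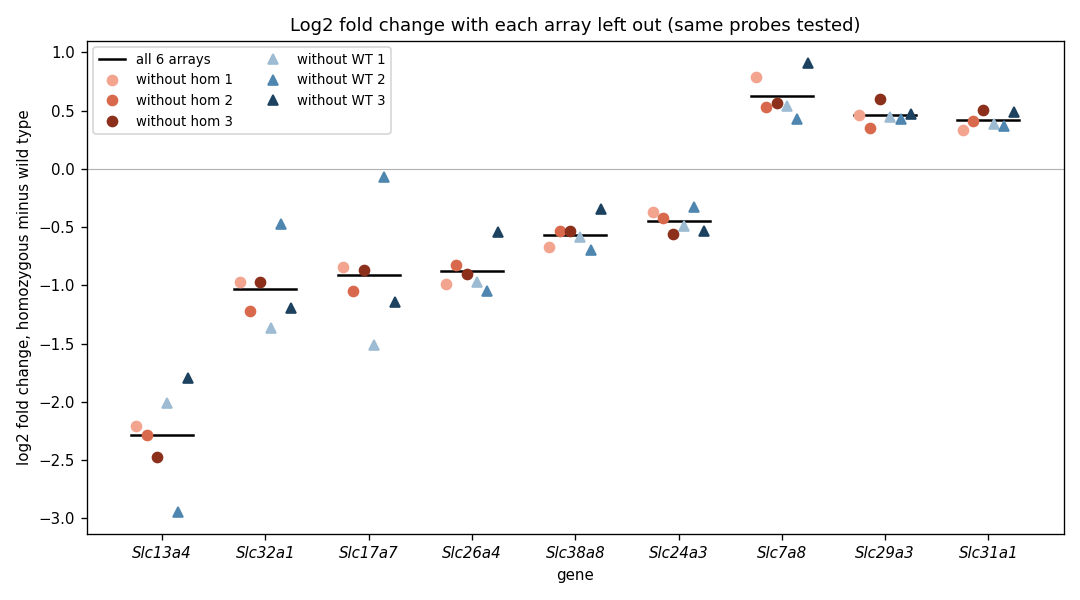
Log2 fold change (homozygous minus wild type, vertical axis) of 9 members with all 6 arrays (black line) and with each homozygous (hom) or wild-type (WT) array left out in turn, the same probes being tested. Slc17a7 lies at -0.07 without wild type replicate 2 and at -0.91 with all arrays, and Slc13a4 ranges from -2.94 without that array to -1.79 without wild type replicate 3.

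For 21 members more than 1 probe was tested. In 14 all probes of the gene lay on one side of 0 and in 7 they lay on both, with a widest gap of 0.56 between 2 probes of a gene. None of the 135 probes of members passed (lowest limma adjusted p = 0.0766).

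The 12 tested genes that work with solute carriers or belong to the related Slco family gave 1 lower and 0 higher. Of all tested genes 0.327% were lower and 0.109% higher. The kinase Sgk1, which raises the activity of several carriers and channels, was 2.69-fold lower in the homozygotes (log2 fold change -1.43, SE 0.25, limma adjusted p = 0.0395). With the authors' processed values 0 genes passed, so this call depends on the processing. The kinases Wnk1 and Stk39, which regulate the cation-chloride cotransporters, were at 0.35 and -0.34 and did not pass. Basigin (Bsg) and embigin (Emb), which bring monocarboxylate transporters to the membrane, were at 0.37 and -0.04. The Slco members tested were Slco1a4, Slco1a5 and Slco2b1, at -0.01, 0.16 and -0.07.

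At the edge of the rule, 12 members were above background on exactly 3 arrays, with mean deposited signals of 94.1 to 148. The 20 solute carriers on exactly 2 arrays had 89.5 to 105 and are no members. Just inside lay Slc38a10, Slc46a1 and Slc9a3r1, with mean signals of 96.1, 95.7 and 95. Just outside lay Slc9a8, Slc10a7 and Slc16a10, with 96.1, 95.6 and 95.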

How the data were processed

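Illumina BeadChips were read as a deposited table of linear intensity per probe, neither background-subtracted nor normalized, each value paired with a detection p-value, per the file headers. For the same 6 arrays the authors also deposited processed intensity, background-subtracted and normalized by a method not given in the sources used here. The submitters' processing notes name GenomeStudio 2011.1.

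With limma 3.58.1 in R 4.3.3 the signals were corrected by the normal-exponential method using the detection p-values, with an offset of 16, quantile normalized and taken to log2. Of 25697 probes, 23978 have 1 symbol in the platform annotation, 0 several and 1719 none. All 110 members matched RefSeq GRCm38.p6 by gene ID under the same symbol. Probes above background (detection p-value under 0.05) on at least 3 arrays were fitted with lmFit and eBayes (intensity trend, two-sided, genotype only), with Benjamini-Hochberg adjustment over the 8618 probes fitted. The probe with the highest mean represents a gene. The offset pulls changes of dim probes toward 0, and quantile normalization hides a shift of most transcripts. Where a group was never above background, a bound is given ("at least"), which sets the mean of the bright arrays against a floor averaged over the dim arrays, on each the lowest detected value or the probe itself if larger. Such a bound rests on means and leaves out the spread between arrays. The number of arrays limits precision.

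The members, lists and tests were chosen with earlier results of these data known. The genes named are members whose groups do not overlap, the brightest and lowest-p member of each family of 3 or more, members above background in 1 group only, the 10 brightest and 3 on each side of the rule. Others were chosen after their values were seen. Alternatives were background correction, offset, normalization, the authors' values, detection filter, variance model, sex, a replicate block, the probe rule and leaving out each array. Sex was taken from the labels, of which that of wild type replicate 3 is in doubt. The test was checked on simulated data. The replicate numbers gave correlations of 0.20, 0.19 and -0.03 and were not taken as pairs.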

Additional observations from a re-analysis of the deposited data

How the results depend on the processing

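The count of members that changed was 0 higher and 0 lower in the main setting and in most others. Higher stayed at 0 in all 23 other settings. Lower became 8 with median scaling, 1 (Slc13a4) with no detection filter and 3 (Slc13a4, Slc26a4 and Slc32a1) with the replicate number as a block, a fit whose numbers are not known to pair animals and in which 2 of 3 numbers correlated best with their own. It ranged from 0 to 1 over the fits that left out 1 array, among them a set added after seeing the data in which the probes passing on all 6 arrays were kept. With median scaling the median of the members moved to -0.28 and that of all tested genes to -0.32, so the 8 calls came with 653 lower and 5 higher calls among 6430 genes. Over the fits that left out 1 array the median of the members was 0.00 to 0.04. The count of all changed genes was 28, but 658 with median scaling, 102 with the replicate block, 17 without background correction, 18 at offset 50, 16 without an intensity trend, 17 with sex as a covariate and 0 with the authors' processed values (7 members at an unadjusted p under 0.05), and between 9 and 83 without 1 array. Slc13a4 passed in 4 settings, and its adjusted p lay between 7.28e-06 and 0.515. Of 946 values of the 42 named members in other settings, 53 changed sign and 12 gained a call, and the cause was not tested. With median scaling 17 changed sign: Slc12a2 to -0.27, Slc12a3 -0.043, Slc1a7 -0.23, Slc22a18 -0.26, Slc25a1 -0.12, Slc25a11 -0.27, Slc25a3 -0.29, Slc31a1 -0.0060, Slc35e3 -0.42, Slc35f3 -0.065, Slc38a2 -0.25, Slc39a12 -0.13, Slc45a4 -0.014, Slc48a1 -0.18, Slc6a17 -0.090, Slc7a2 -0.26 and Slc7a5 -0.41. By the probe of smallest p, Slc25a20 stood at 0.19 and Slc7a2 at -0.22. Slc35e3 stood at -0.0043 without background correction and -0.0014 at offset 50. Leaving out 1 array, 9 changed sign, with ranges of -0.055 to 0.39 for Slc12a2, -0.0062 to 0.20 for Slc1a7, -0.010 to 0.26 for Slc22a18, -0.18 to 0.046 for Slc25a20, -0.11 to 0.035 for Slc25a28, -0.043 to 0.34 for Slc25a3, -0.17 to 0.20 for Slc35e3, -0.15 to 0.10 for Slc4a2 and -0.11 to 0.29 for Slc7a5. With the 6-array probe set the values that changed sign inside these ranges were 0.00059 for Slc25a28 without homozygous replicate 1, -0.012 and -0.021 for Slc35e3 without homozygous replicate 1 and wild type replicate 3, 0.0090 for Slc4a2 without wild type replicate 1, and -0.041, -0.0098 and -0.087 for Slc7a5 without homozygous replicates 2 and 3 and wild type replicate 2. A slide block was not run, since the headers name no slide.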

Other observations

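Several carriers known from the lens or from cataract were on the array but did not meet the rule, a choice of 17 genes made after their values were seen. Of these, 14 were above background on 0 arrays. They included the monocarboxylate transporters Slc16a1, Slc16a3 and Slc16a12, the sodium-bicarbonate cotransporter Slc4a4, the sodium-glucose cotransporter Slc5a1, the potassium-chloride cotransporters Slc12a4 and Slc12a7 and the glutamine transporter Slc1a5. The deposited signal of the Slc16a12 probe was 80.2 to 87.1, and that of the Slc4a4 probe 78.1 to 90.9. Slc2a3, a glucose transporter, Slc23a2, a vitamin C transporter, and Slc6a8, the creatine transporter, were above background on 1 or 2 arrays, all of them wild type. A probe at background does not show that the transcript is absent.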
